A study of Mus musculus with 10 samples.

Results

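The nuclear genes for oxidative phosphorylation were examined in the cerebral cortex of mice that lack Usp7, a deubiquitinase, in forebrain glutamatergic neurons. The members are the 86 protein-coding entries, of 55487 genes in the table of gene levels, whose symbols begin with Nduf followed by a, b, c, s or v and a number, are Sdha to Sdhd, or begin with Uqcr, Cox4 to Cox8 or Atp5. They comprise 35 genes of complex I, 4 of complex II, 8 of complex III, 21 of complex IV and 18 of complex V, with Ndufa4 and Ndufa4l2 placed in complex IV, where the structure of the enzyme puts Ndufa4. A further match was left out by the rule and is not reported here, and 15 more matches are not listed as protein-coding. The 86 entries bear 85 symbols, because Atp5o stands for 2 gene identifiers, of which 1 is listed at 0 in every library. The tested animals were Usp7 cKO; Trp53+/- mice, in which NEX-cre had deleted Usp7 fl/fl, and they were set against Usp7 WT; Trp53+/- mice. Loss of 1 Trp53 allele is thus common to both groups, and whether the Usp7 WT animals carry Cre or floxed alleles is not stated. All animals were 18 days old, and total RNA was sequenced from 5 animals of each genotype, matched by litter and sex according to the labels, although no label says which animals form a pair. The comparison asks whether the level or the exon and intron usage of these genes differs between the genotypes.

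Oxidative phosphorylation makes most of the ATP of the brain. Complex I (NADH dehydrogenase) and complex II (succinate dehydrogenase) pass electrons to ubiquinone, complex III to cytochrome c, and complex IV (cytochrome c oxidase) to oxygen. The proton gradient that complexes I, III and IV build drives complex V, the ATP synthase. Most subunits are encoded in the nucleus, and a core set is encoded in the mitochondrial genome, except for complex II, which is wholly nuclear. Neurons depend heavily on this pathway to restore ion gradients after synaptic activity, and several complex IV subunits exist as paralogs that are typical of muscle, lung or testis. Because the tissue is a mixture of cells and Cre acts in a single class of them, fewer cells of a type and less RNA per cell cannot be told apart in these libraries.

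Usp7 itself lay between 31.6 and 40.9 TPM in the 5 Usp7 cKO libraries and between 48.3 and 61.9 TPM in the 5 Usp7 WT libraries, so the genotype labels held in every library. The sex-linked transcripts Xist and Ddx3y went against the labelled sex in the libraries labelled Usp7 cKO replicate 1 and Usp7 WT replicate 2. The library identifiers run in genotype order, so that order and genotype cannot be told apart. The exon bins of a library held 42628526 to 51797145 counts, and TPM, a level scaled by gene length and library total, keeps no depth. Usp7 WT replicate 4 stood apart for these genes. It was the lowest of the 10 libraries in 66 of the 84 members with a mean of at least 0.5 TPM, against 32% of the 11213 protein-coding genes of at least 5 TPM. The members took 1.19% of TPM there and 1.33 to 1.51% in the other 9 libraries. At the other end, Usp7 cKO replicate 3 was the highest library in 35 members, against 32.5% of the protein-coding genes.

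The members differed little between the genotypes. Of the 84 tested with limma on log2(TPM + 0.5), 3 were called at an adjusted p of 0.05 (3.57%), all of them higher in Usp7 cKO. Of all 27580 genes tested 13.9% were called. At an unadjusted limma p under 0.05 the shares lay closer together, with 21 of 84 members (25%) against 28.1% of all genes. Among all genes 2544 were higher and 1288 lower in Usp7 cKO, which is 9.22% and 4.67% of those tested. The 3 called members were Cox6b2, a testis-type subunit of complex IV, Cox5b-ps, a near-copy of the complex IV gene Cox5b, and Ndufb7, an accessory subunit of complex I. The median log2 change was 0.09 over the members and 0.06 over all genes, and 64 of 84 members had a positive value (52 after rescaling by size factors). Over all genes 16405 of 27580 were positive (14238 after rescaling). Of the protein-coding genes of at least 5 TPM, 6030 of 11213 were positive (4692 after rescaling). Among the 11213 protein-coding genes of at least 5 TPM, 20% were called and 11.8% called higher. Every Usp7 cKO library lay above every Usp7 WT library in 6 members (Ndufb7, Ndufa5, Sdhd, Cox6b2, Cox5b and Atp5o). That is 7.14%, against 8.19% of all genes. Every Usp7 cKO library lay below in 0 members, against 4.58% of all genes. Of the 11213 protein-coding genes of at least 5 TPM, 1184 lay above and 898 below in this way.

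The intervals around these changes were narrow. Of the 78 members with a mean of at least 5 TPM that were tested, 75 had a 95% interval within 0.5 of 0 on the log2 scale. The exceptions were Cox5b-ps, Atp5md and Ndufa6, whose upper bounds were 0.55, 0.51 and 0.51. Over these 78 genes the bounds ran from -0.36 to 0.55. The median standard error was 0.0729 over the members and 0.145 over all genes tested. All genes tested reach down to a mean of 0.5 TPM, and the standard error of genes of like level is not given here. Without Usp7 WT replicate 4 the median change of the members was 0.04, that of all genes 0.05, and 4 members were called higher and 1 lower, with 12.3% of all genes called and 7.45% called higher. Without Usp7 WT replicate 3, whose member levels were the highest of the Usp7 WT libraries, 13 members were called, all higher, with 3360 of 27580 genes called. The further 10 were Ndufb11, Ndufs7, Ndufb1-ps, Sdhd, Sdhb, Uqcrc1, Uqcr11, Cox5b, Atp5md and Atp5j2. After TPM were rescaled by median-of-ratios size factors, Cox6b2 was called higher and Uqcrb lower, while all genes gave 2703 higher and 2901 lower calls (20.3%, with 9.8% higher). With the bin counts of each gene summed, edgeR called 5 members, all higher, against 27.2% of all genes called and 13.7% called higher. DESeq2 called 4 higher and 3 lower, against 23.7% called and 11% called higher.

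**Figure D1:**
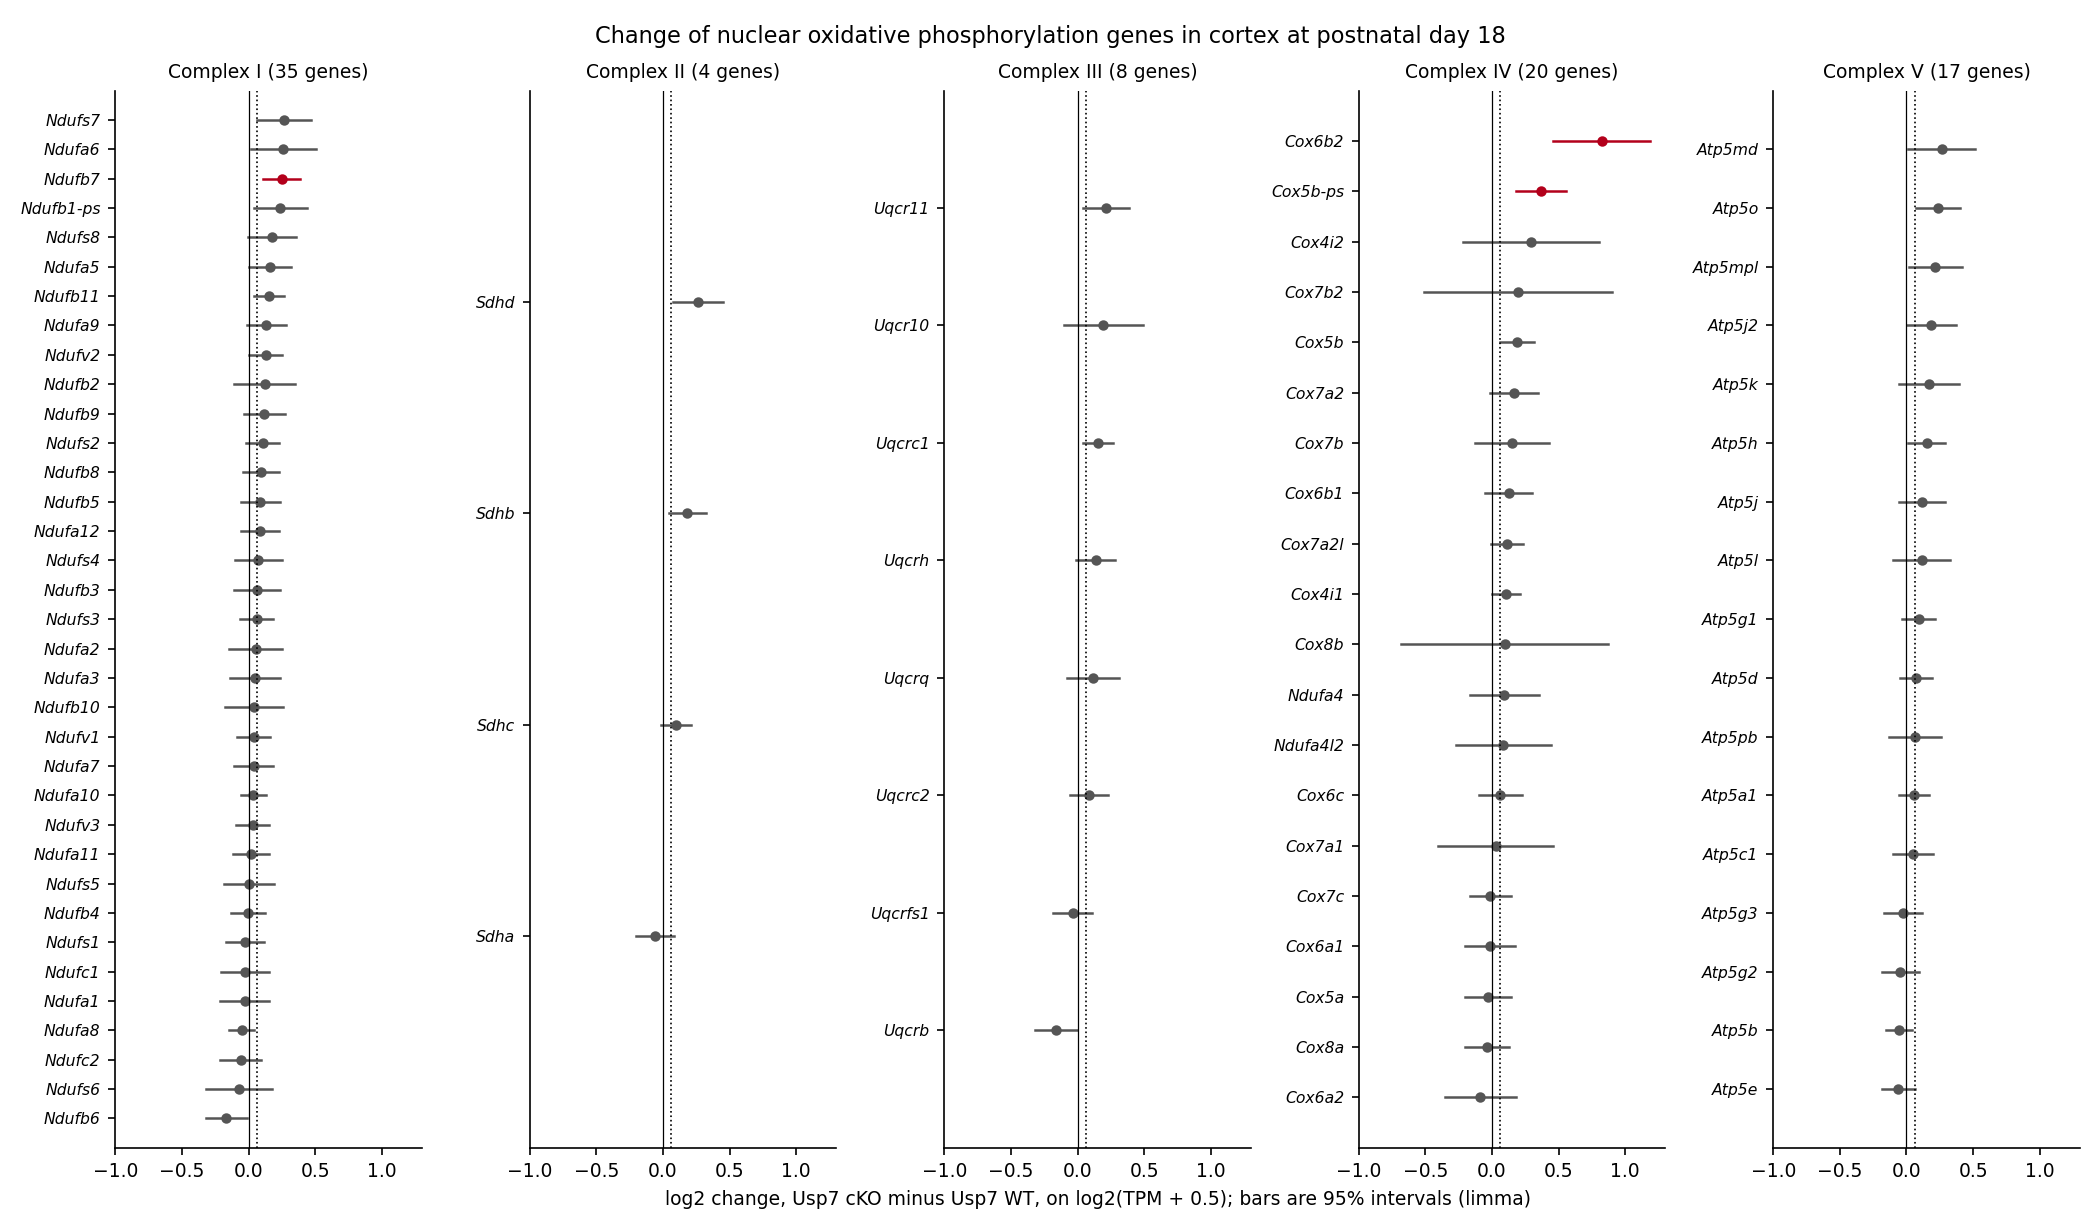
Log2 change of each of the 84 tested members, Usp7 cKO minus Usp7 WT, by complex. Points are limma estimates on log2(TPM + 0.5), bars 95% intervals, red marks the 3 called genes (Cox6b2, Cox5b-ps and Ndufb7), and the dotted line is the median of all genes at 0.06.

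Compared as complexes, the medians lay close together. The median log2 change was 0.06 in complex I, 0.14 in complex II, 0.13 in complex III, 0.10 in complex IV and 0.09 in complex V. Single genes ran from -0.17 to 0.27 in complex I, -0.06 to 0.26 in complex II, -0.16 to 0.21 in complex III, -0.09 to 0.82 in complex IV and -0.06 to 0.26 in complex V. Positive values were found in 27 of 35, 3 of 4, 6 of 8, 15 of 20 and 13 of 17 tested genes, and after rescaling in 18, 3, 6, 14 and 11 of them. Over all genes 16405 of 27580 were positive, and 14238 after rescaling. Without Usp7 WT replicate 4 the same medians were 0.01, 0.10, 0.05, 0.07 and 0.04, all below the values with it. Calls numbered 1 in complex I, 0 in complexes II, III and V, and 2 in complex IV. In complexes II, III and V, where limma called 0, the genes with an unadjusted p under 0.05 numbered 2, 3 and 5, against 28.1% of all genes. There edgeR on summed exon counts called 1, 1 and 0 genes while DESeq2 called 1, 2 and 0.

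Summed over its nuclear genes, complex IV held the most transcripts and complex II the fewest. Complex IV summed to 5172 ± 247 TPM in Usp7 cKO and 5013 ± 440.4 TPM in Usp7 WT (SD, n = 5 each). Complex I summed to 3737 ± 123 TPM in Usp7 cKO and 3583 ± 307 TPM in Usp7 WT. Complex V reached 3081 ± 69.5 TPM in Usp7 cKO and 2986 ± 221 TPM in Usp7 WT. Complex III reached 1773 ± 87.9 TPM in Usp7 cKO and 1617 ± 178 TPM in Usp7 WT, and complex II 543 ± 20.1 TPM in Usp7 cKO and 510.2 ± 44.7 TPM in Usp7 WT. In each complex the Usp7 cKO mean was higher by less than the SD of the Usp7 WT libraries, and the ranges of the genotypes overlapped. Both the gap and that SD rested largely on Usp7 WT replicate 4. Without it the Usp7 cKO mean was higher by 30.9 TPM in complex I, 14.7 in complex II, 79 in complex III, 4.25 in complex IV and 7.35 in complex V. In complex III this gap exceeded the SD of the remaining 4 Usp7 WT libraries, 49 TPM, with ranges that still overlapped, and in the other 4 complexes it did not. The shares of the complexes in the members' total also lay close together. Complex III made up 12.4 ± 0.194% in Usp7 cKO and 11.8 ± 0.474% in Usp7 WT, and complex I 26.1 ± 0.52% in Usp7 cKO and 26.1 ± 0.0969% in Usp7 WT.

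**Figure D2:**
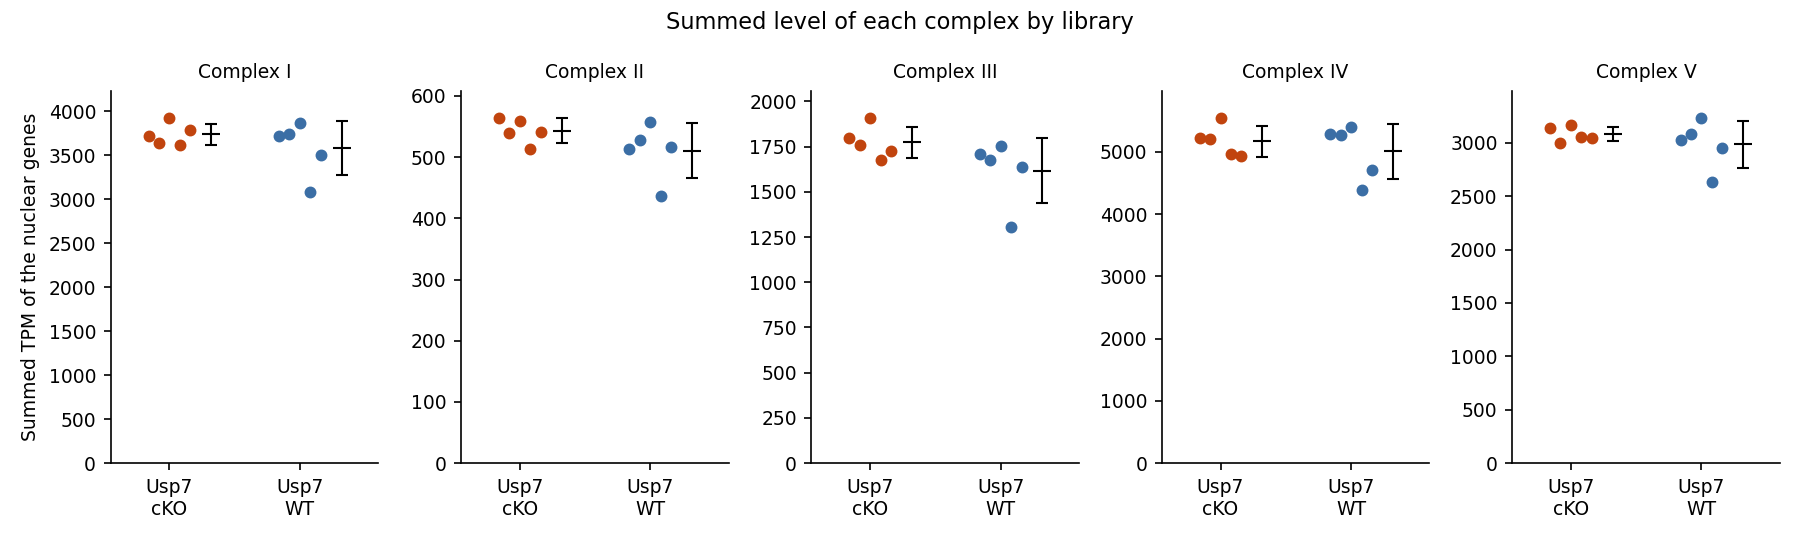
Summed TPM of the nuclear genes of each complex in the 5 Usp7 cKO (left, red) and 5 Usp7 WT (right, blue) libraries, replicates 1 to 5 from left to right within a group, with mean and SD beside them. The lowest Usp7 WT point in every panel is replicate 4, at 1307 TPM for complex III.

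Complex I genes span a modest range of levels, from a mean of 7.15 TPM for Ndufb2 to 272 TPM for Ndufa2. Ndufb7, an accessory subunit of the proton-pumping membrane arm (chromosome 8, 83566671 to 83571626, plus strand, GRCm38), was higher in Usp7 cKO. It had 38.8, 38.3, 42, 36.3 and 39.3 TPM in Usp7 cKO libraries, against 34.1, 33.9, 35.1, 28.6 and 32.1 TPM in Usp7 WT libraries, and the groups did not overlap (log2 change 0.25, SE 0.0625, limma adjusted p = 0.0259). Its adjusted p ran from 0.00967 to 0.116 over the alternatives, and the call was lost when any of 6 single libraries was left out (Usp7 cKO replicates 1, 3 and 5 and Usp7 WT replicates 1, 2 and 5), among other settings. The log2 change without Usp7 WT replicate 4 was 0.20, and the adjusted p 0.0479.

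The next members of complex I by p did not pass the threshold. Ndufb11, an X-linked accessory subunit of the membrane arm, had 204, 219, 219.8, 212 and 203 TPM in Usp7 cKO libraries, against 197, 189.7, 203, 170.1 and 194 TPM in Usp7 WT libraries (log2 change 0.15, SE 0.051, limma adjusted p = 0.0797). Ndufs7, a core subunit that carries the iron-sulfur cluster next to ubiquinone, had 161, 144, 174, 148 and 167 TPM in Usp7 cKO libraries, against 142, 142, 149.7, 109 and 119.9 TPM in Usp7 WT libraries (log2 change 0.27, SE 0.092, limma adjusted p = 0.0854). Both overlapped between the genotypes, and both had their lowest value in Usp7 WT replicate 4. Ndufb1-ps, listed as protein-coding in the deposited table and lying across Cpsf2 on the other strand, had 45.8, 46.8, 48.1, 40.7 and 46.6 TPM in Usp7 cKO libraries, against 41.4, 44, 42.6, 31.1 and 35.4 TPM in Usp7 WT libraries (log2 change 0.24, SE 0.0896, limma adjusted p = 0.113). Ndufa2, an accessory subunit of the NADH-oxidising arm and the most abundant member of the complex, had 278, 267, 298, 249.6 and 289.6 TPM in Usp7 cKO libraries, against 297, 292, 293, 209.6 and 249.9 TPM in Usp7 WT libraries (log2 change 0.05, SE 0.0895, limma adjusted p = 0.75). The Usp7 WT values of Ndufa2 spanned nearly the whole range of those of Usp7 cKO, and without Usp7 WT replicate 4 its change was -0.03. By region of the enzyme, the median log2 change was 0.05 for the 8 genes of the NADH-oxidising part, 0.15 for the 8 genes of the ubiquinone-binding part and 0.04 for the 19 genes of the membrane arm. All 8 genes of the ubiquinone-binding part had a positive value, and 7 of 8 did after rescaling, but none was called by limma, edgeR or DESeq2. Over all genes 16405 of 27580 were positive, and 14238 after rescaling. Unadjusted, 3 of the 8 had a limma p under 0.05, against 28.1% of all genes. The medians of the 3 regions without Usp7 WT replicate 4 were -0.00, 0.09 and -0.01.

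Complex II links the tricarboxylic acid cycle to the respiratory chain, and 3 of its 4 genes had higher means in Usp7 cKO without passing the threshold. Sdhd, a membrane anchor, had 139, 138, 138, 128 and 129.7 TPM in Usp7 cKO libraries, against 118, 120.2, 126, 88.5 and 111 TPM in Usp7 WT libraries. The groups did not overlap, and the change missed the threshold (log2 change 0.26, SE 0.0841, limma adjusted p = 0.0659). Without Usp7 WT replicate 4, its lowest library, the change was smaller at 0.17 and passed it with an adjusted p of 0.0472, where the range over all alternatives was 0.021 to 0.185. Sdhb, the iron-sulfur subunit, had 144, 141, 144, 132 and 139 TPM in Usp7 cKO libraries, against 126, 131, 136, 108 and 118 TPM in Usp7 WT libraries (log2 change 0.18, SE 0.0621, limma adjusted p = 0.0818). Sdhc, the other anchor, averaged 61.9 ± 2.55 TPM in Usp7 cKO and 57.9 ± 2.69 TPM in Usp7 WT (SD, n = 5 each), with 65.5, 60.8, 63.7, 59.9 and 59.7 TPM in the single Usp7 cKO libraries and 58.2, 57.2, 59.6, 53.8 and 60.8 TPM in the single Usp7 WT libraries (log2 change 0.10, SE 0.0496, limma adjusted p = 0.237). Sdha, the flavoprotein that oxidises succinate and the most abundant of the 4, had 215, 199, 213, 192 and 213 TPM in Usp7 cKO libraries, against 210.2, 219, 237, 187 and 226 TPM in Usp7 WT libraries (log2 change -0.06, SE 0.0644, limma adjusted p = 0.602). Its mean was the only one of the complex that was lower in Usp7 cKO, its groups overlapped, and DESeq2 on summed exon counts called it lower (log2 change -0.14, adjusted p = 0.0441). Its limma change without Usp7 WT replicate 4 was -0.11 (adjusted p = 0.193).

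In complex III no gene was called. Uqcrc1, a core protein of the matrix side, had 226, 214, 242, 221 and 233 TPM in Usp7 cKO libraries, against 209, 213, 215, 186 and 197 TPM in Usp7 WT libraries (log2 change 0.16, SE 0.0515, limma adjusted p = 0.0747). Uqcr11, the smallest subunit and the most abundant transcript of the complex, had 559.6, 577, 643, 519 and 538 TPM in Usp7 cKO libraries, against 525.8, 484, 518, 393 and 535 TPM in Usp7 WT libraries (log2 change 0.21, SE 0.0773, limma adjusted p = 0.101), and edgeR on summed exon counts called it higher with an adjusted p of 0.0281. In both genes the Usp7 cKO libraries lay mostly above Usp7 WT, with overlap. Uqcrh, the hinge protein that contacts cytochrome c1, had 167, 170.3, 173, 156 and 153 TPM in Usp7 cKO libraries, against 153, 151, 159, 126 and 158 TPM in Usp7 WT libraries (log2 change 0.14, SE 0.0658, limma adjusted p = 0.21), and without Usp7 WT replicate 4 its change was 0.08. Uqcrb, an accessory subunit of the matrix side, ran the other way, with 59.7, 57.2, 60.2, 55 and 54.3 TPM in Usp7 cKO libraries, against 66.9, 60.5, 70.3, 55 and 69 TPM in Usp7 WT libraries (log2 change -0.16, SE 0.0725, limma adjusted p = 0.176). Its Usp7 WT replicate 4 lay within the Usp7 cKO values, and without that library Uqcrb was called lower (log2 change -0.22, adjusted p = 0.0396), as it was after rescaling (log2 change -0.22, adjusted p = 0.0193) and by DESeq2 (log2 change -0.21, adjusted p = 0.0357). Over all alternatives its adjusted p ran from 0.0193 to 0.325, and Uqcrb overlaps the protein-coding gene Gm10767 on the other strand.

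Complex IV holds both the most abundant member, Cox8a, with a mean of 1395 TPM, and 7 members under 5 TPM, most of them tissue-restricted paralogs. The largest change of all members was that of Cox6b2 (ENSMUSG00000051811, chromosome 7, 4751792 to 4753094, minus strand, GRCm38), the testis form of the subunit that faces the intermembrane space and joins the dimer. It had 4.35, 2.76, 4.81, 4.05 and 4.96 TPM in Usp7 cKO libraries, against 2.26, 1.65, 2.41, 2.13 and 2.16 TPM in Usp7 WT libraries. Every Usp7 cKO library lay above every Usp7 WT library, and the means were 4.19 ± 0.876 TPM in Usp7 cKO and 2.12 ± 0.283 TPM in Usp7 WT (SD, n = 5 each) (log2 change 0.82, SE 0.163, limma adjusted p = 0.00827). Exon bin counts of the gene numbered 129, 80, 136, 146 and 183 in Usp7 cKO and 86, 63, 69, 89 and 58 in Usp7 WT, so each value rests on few reads. Its adjusted p ran from 0.000147 to 0.0577 over the alternatives, and it was above the threshold only without both libraries of discordant sex (log2 change 0.74, adjusted p = 0.0577). The common form Cox6b1 averaged 515 ± 33.9 TPM in Usp7 cKO and 474 ± 54.1 TPM in Usp7 WT (SD, n = 5 each) (log2 change 0.13, SE 0.0782, limma adjusted p = 0.334), and its change was 0.05 without Usp7 WT replicate 4. Cox6b2 made up 0.81 ± 0.179% of the pair's TPM in Usp7 cKO and 0.451 ± 0.0819% in Usp7 WT. The coding sequences of Cox6b2 and Cox6b1 are 267 and 261 bases long and 61.9% identical over their alignment (GENCODE vM21), with no identical run longer than 14 bases.

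The promoters of both genes lie on chromosome 7 and are shown because these paralogs differ so much in level. The sequences are from RefSeq (GRCm38.p6), minus strand, and stop before the first annotated transcript start. Capitals mark CCAAT boxes on either strand (CCAAT or ATTGG), the only motif searched that either printed stretch holds.
Cox6b2, chr7:4753095-4753344: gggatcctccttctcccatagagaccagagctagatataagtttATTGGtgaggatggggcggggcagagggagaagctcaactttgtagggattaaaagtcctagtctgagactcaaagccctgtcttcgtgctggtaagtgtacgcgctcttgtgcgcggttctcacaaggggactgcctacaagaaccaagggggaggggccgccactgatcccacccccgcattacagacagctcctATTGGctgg
Cox6b1, chr7:30626152-30626364: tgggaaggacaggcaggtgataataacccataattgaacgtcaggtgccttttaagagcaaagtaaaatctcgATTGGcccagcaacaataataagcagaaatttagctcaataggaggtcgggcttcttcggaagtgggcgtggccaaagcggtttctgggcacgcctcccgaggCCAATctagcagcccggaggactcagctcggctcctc

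Cox5b-ps was the other called gene of complex IV (chromosome 13, 21501029 to 21501418, minus strand, GRCm38). It had 148, 131, 118, 144 and 149 TPM in Usp7 cKO libraries, against 108, 123, 108, 101 and 95 TPM in Usp7 WT libraries (log2 change 0.37, SE 0.0839, limma adjusted p = 0.0169). The groups overlapped at Usp7 cKO replicate 3 and Usp7 WT replicate 2, and the call was lost after rescaling (log2 change 0.31, adjusted p = 0.104), where the range over alternatives was 0.00691 to 0.104. Cox5b itself, the zinc-binding subunit of the matrix side (chromosome 1, 36691449 to 36693681, plus strand), had 302, 291, 328, 297 and 297 TPM in Usp7 cKO libraries, against 274, 275, 289.6, 241 and 251 TPM in Usp7 WT libraries and just missed the threshold (log2 change 0.19, SE 0.0574, limma adjusted p = 0.0544). The groups of Cox5b did not overlap. Cox5b-ps is annotated as a single exon and matches the coding sequence of Cox5b in 387 of 390 bases (99.2%), with identical runs of up to 147 bases, so reads of the pair can be split between them by the authors' counting and the level of Cox5b-ps is uncertain.

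A stretch of both coding sequences, from position 84 to 273 counted from the A of the start codon, is shown because it holds all 3 differences, which stand in capitals. The sequences are from GENCODE vM21 (GRCm38).
Cox5b-ps, chr13:21501146-21501335, minus strand: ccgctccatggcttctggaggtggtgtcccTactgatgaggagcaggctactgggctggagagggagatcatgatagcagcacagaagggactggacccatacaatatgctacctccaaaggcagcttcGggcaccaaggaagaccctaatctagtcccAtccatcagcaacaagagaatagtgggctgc
Cox5b, spliced from chr1:36691670-36692546, plus strand: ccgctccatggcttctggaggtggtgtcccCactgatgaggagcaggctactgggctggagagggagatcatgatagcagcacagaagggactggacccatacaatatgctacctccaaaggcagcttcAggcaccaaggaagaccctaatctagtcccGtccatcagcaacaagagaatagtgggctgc

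Cox4i1, the common form of a regulatory subunit, had 634, 582, 626, 599 and 585 TPM in Usp7 cKO libraries, against 560.0, 578, 608, 519 and 547 TPM in Usp7 WT libraries (log2 change 0.11, SE 0.0479, limma adjusted p = 0.179). Cox8a, a small membrane subunit, had 1400.3, 1465, 1508, 1289 and 1219 TPM in Usp7 cKO libraries, against 1497, 1462, 1514, 1202 and 1399 TPM in Usp7 WT libraries (log2 change -0.04, SE 0.0743, limma adjusted p = 0.777). Both groups of Cox8a covered nearly the same range, and those of Cox4i1 overlapped. Leaving out Usp7 WT replicate 4 gave changes of 0.07 for Cox4i1 and -0.10 for Cox8a.

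**Figure D3:**
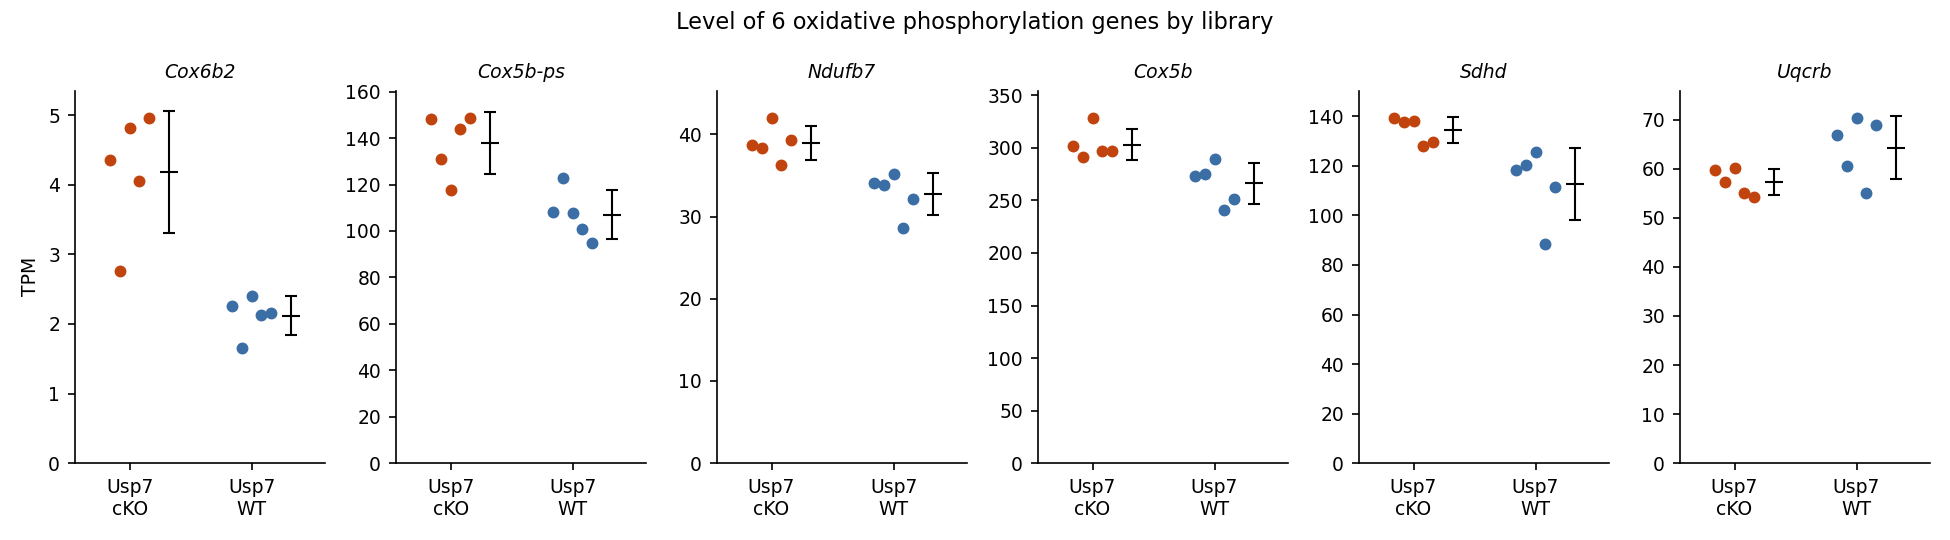
TPM of Cox6b2, Cox5b-ps, Ndufb7, Cox5b, Sdhd and Uqcrb in the 5 Usp7 cKO (left, red) and 5 Usp7 WT (right, blue) libraries, replicates 1 to 5 from left to right within a group, with mean and SD. Cox6b2, Ndufb7, Cox5b and Sdhd do not overlap between the groups, and Uqcrb averages 57.3 TPM in Usp7 cKO and 64.3 TPM in Usp7 WT.

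The other tissue-restricted paralogs of complex IV stayed low, and none was called. Cox4i2, the lung form, had 3.88, 1.62, 4.42, 2.88 and 3.82 TPM in Usp7 cKO libraries, against 3.01, 2.18, 2.42, 3.07 and 1.97 TPM in Usp7 WT libraries (log2 change 0.29, SE 0.231, limma adjusted p = 0.451). Cox6a2, the form of heart and skeletal muscle, was the most abundant of the 7 tissue-restricted paralogs, with 15.8, 18.2, 21.8, 16 and 14.5 TPM in Usp7 cKO libraries, against 19.7, 18.3, 21.2, 16.5 and 15.7 TPM in Usp7 WT libraries (log2 change -0.09, SE 0.121, limma adjusted p = 0.686). Their groups overlapped. Cox7a1, the muscle form of its subunit, had 3.56, 3.57, 6.39, 4.44 and 5.85 TPM in Usp7 cKO libraries, against 5.02, 3.53, 4.03, 3.79 and 6.98 TPM in Usp7 WT libraries (log2 change 0.03, SE 0.194, limma adjusted p = 0.942). Cox8b, a muscle form too, had 0.755, 2.48, 3.23, 1.2 and 0.656 TPM in Usp7 cKO libraries, against 1.21, 2.23, 0.705, 1.88 and 0.978 TPM in Usp7 WT libraries, and its log2 change of 0.09 had an interval from -0.68 to 0.87 (limma adjusted p = 0.893). Cox7b2, known from testis, had 0.627, 1.06, 0.757, 0.399 and 1.42 TPM in Usp7 cKO libraries, against 0.461, 0.845, 1.64, 0.416 and 0.26 TPM in Usp7 WT libraries (log2 change 0.20, SE 0.318, limma adjusted p = 0.736). The values of Cox7a1, Cox8b and Cox7b2 scattered widely within each genotype, and their changes without Usp7 WT replicate 4 were 0.02, 0.29 and 0.11. Cox8c, a testis form, was listed at 0 in 8 libraries, at 0.139 TPM in Usp7 cKO replicate 2 and at 0.123 TPM in Usp7 WT replicate 4, and was too low to test. Against their common counterparts, Cox6a2 made up 1.62 ± 0.200% of the TPM of Cox6a1 and Cox6a2 in Usp7 cKO and 1.7 ± 0.128% in Usp7 WT. Cox4i2 made up 0.543 ± 0.17% of its pair with Cox4i1 in Usp7 cKO and 0.45 ± 0.104% in Usp7 WT.

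Complex V had no called gene. Atp5o, the subunit that ties the stalk to the catalytic head, had 64.3, 56.1, 56.4, 52.4 and 60.1 TPM in Usp7 cKO libraries, against 50.2, 52.4, 51.4, 42.1 and 49.2 TPM in Usp7 WT libraries. The lowest Usp7 cKO value lay just above the highest Usp7 WT value, and the change missed the threshold (log2 change 0.24, SE 0.0734, limma adjusted p = 0.0591). Atp5mpl, a small membrane subunit, had 53.1, 52.8, 62.8, 51.7 and 51 TPM in Usp7 cKO libraries, against 50.1, 46.7, 51.1, 36.9 and 49.3 TPM in Usp7 WT libraries (log2 change 0.22, SE 0.0893, limma adjusted p = 0.142). Atp5h, subunit d of the stalk, had 137, 145, 157, 131 and 135 TPM in Usp7 cKO libraries, against 131, 125, 133, 109.5 and 137 TPM in Usp7 WT libraries (log2 change 0.15, SE 0.0621, limma adjusted p = 0.145). Atp5md, a small subunit linked to dimers of the enzyme, had 39.3, 40.1, 40.6, 36 and 38.1 TPM in Usp7 cKO libraries, against 34.3, 36.1, 38.7, 23.5 and 31 TPM in Usp7 WT libraries (log2 change 0.26, SE 0.113, limma adjusted p = 0.161). In Atp5mpl, Atp5h and Atp5md the lowest value was that of Usp7 WT replicate 4, and the changes without it were 0.14, 0.11 and 0.15. Atp5a1, the alpha subunit of the catalytic head and the most abundant of the complex, had 840.3, 776, 820.1, 824 and 818 TPM in Usp7 cKO libraries, against 801, 806, 842, 698 and 781 TPM in Usp7 WT libraries (log2 change 0.06, SE 0.0505, limma adjusted p = 0.511). Its catalytic partner Atp5b averaged 591 ± 13.7 TPM in Usp7 cKO and 616 ± 35.5 TPM in Usp7 WT (SD, n = 5 each) (log2 change -0.06, SE 0.0445, limma adjusted p = 0.444). Both differences lay within the spread of the libraries. The changes without Usp7 WT replicate 4 were 0.01 for Atp5a1 and -0.10 for Atp5b, and after rescaling -0.0011 and -0.11.

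Of 151 other genes of the pathway that could be tested, 3 were higher and 13 lower in Usp7 cKO, from lists of assembly factors, carriers, regulators and neighbouring metabolism. Over all genes 9.22% were called higher and 4.67% lower. Among the 13 subunits encoded in the mitochondrial genome 2 fell, mt-Nd4 of complex I, with 2053 ± 159 TPM in Usp7 cKO and 2355 ± 124 TPM in Usp7 WT (log2 change -0.20, limma adjusted p = 0.0143), and mt-Co1, the catalytic subunit of complex IV, with 8218 ± 362 TPM in Usp7 cKO and 9261 ± 548 TPM in Usp7 WT (log2 change -0.17, limma adjusted p = 0.0168). Their median log2 change was -0.07, against 0.09 for the nuclear members. The 13 summed to 25622 to 28455 TPM in Usp7 cKO and 28493 to 31607 TPM in Usp7 WT, or 1.81 to 2.06 times the members' sum in Usp7 cKO and 2.00 to 2.6 times in Usp7 WT, with the highest ratio in Usp7 WT replicate 4. After rescaling 4 of the 13 were called lower, against 2901 of all 27580 genes. Both calls were lost with Xist as covariate (adjusted p = 0.0971 and 0.0754), and that of mt-Co1 without the libraries of discordant sex (adjusted p = 0.0515).

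Assembly factors, which build the complexes without being part of them, moved in both directions. Of 18 tested for complex I, Timmdc1, with 24.6 ± 0.85 TPM in Usp7 cKO and 31.3 ± 1.1 TPM in Usp7 WT (log2 change -0.34, limma adjusted p = 0.00151), and Ndufaf4, with 5.62 ± 0.344 TPM in Usp7 cKO and 8.1 ± 1.02 TPM in Usp7 WT (log2 change -0.48, limma adjusted p = 0.0128), fell. Of 22 tested for complex IV, Coa5 fell, with 26.1 ± 2.1 TPM in Usp7 cKO and 31.8 ± 1.77 TPM in Usp7 WT (log2 change -0.28, limma adjusted p = 0.0158). Cox19, which handles copper delivery, and Pet100 rose, with log2 changes of 0.33 and 0.25 (limma adjusted p = 0.0265 and 0.0477), and both calls were lost without Usp7 WT replicate 4 (adjusted p = 0.0582 and 0.0627). After rescaling 1 factor of complex IV was called higher and 3 lower, and 6 of complex I were called lower. None of the 4 factors of complex II, the 6 of complex III and the 5 of complex V was called by limma, and after rescaling 3 factors of complex III were called lower.

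Among electron carriers and subunits outside the rule, 1 of 9 fell, the glycerophosphate dehydrogenase Gpd2, with 56.9 ± 1.75 TPM in Usp7 cKO and 71.5 ± 3.63 TPM in Usp7 WT (log2 change -0.33, limma adjusted p = 0.00159). Of 20 regulators of mitochondrial genes, such as Ppargc1a, Nrf1, Gabpa and Tfam, only the mitochondrial deacetylase Sirt3 was called, with 14 ± 1.36 TPM in Usp7 cKO and 18.2 ± 1.48 TPM in Usp7 WT (log2 change -0.37, limma adjusted p = 0.0114), and after rescaling 5 were called lower. In the tricarboxylic acid cycle, 1 of 19 genes rose, Idh2, with 54 ± 5.54 TPM in Usp7 cKO and 41.9 ± 4.65 TPM in Usp7 WT (log2 change 0.36, limma adjusted p = 0.0157), and 1 fell, the citrate synthase Cs, with 136 ± 2.4 TPM in Usp7 cKO and 152 ± 5.58 TPM in Usp7 WT (log2 change -0.16, limma adjusted p = 0.0216). Of 16 carriers and pores the glutamate carrier Slc25a22 fell, with 114 ± 4.46 TPM in Usp7 cKO and 168 ± 5.66 TPM in Usp7 WT (log2 change -0.55, limma adjusted p = 2.47e-05). Of 19 glycolytic genes 4 fell, Gapdh, Aldoa, Eno1 and Pgam1, with log2 changes of -0.29, -0.21, -0.18 and -0.19, and 0 rose. Without the libraries of discordant sex 7 of the 16 calls over all these lists held, and those of Ndufaf4, Cox19, Pet100, Sirt3, mt-Co1, Idh2, Cs, Eno1 and Pgam1 were lost, with adjusted p from 0.0515 to 0.147. Without Usp7 WT replicate 4, 4 assembly factors of complex I and 7 glycolytic genes were called lower. The median log2 change of the glycolytic list was -0.07, that of the cycle -0.02 and that of the carriers -0.0043.

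Cell type markers moved with genotype beside these genes. Of 12 markers of glutamatergic neurons, the cells in which Cre acts, 9 fell, and the list summed to 2499.8 to 2991 TPM in Usp7 cKO and 3425 to 3833 TPM in Usp7 WT. The list includes Neurod6, the locus of the Cre allele, and the part of that allele in its level was not tested. Of 12 microglial markers 10 fell, with a sum of 294 to 337 TPM in Usp7 cKO and 424 to 482 TPM in Usp7 WT, and of 10 astrocyte markers 2 rose (Sox9 and Gfap), with a sum of 2328 to 2828 TPM in Usp7 cKO and 2517 to 2858 TPM in Usp7 WT. GABAergic markers gave 1 lower call of 10 (Pvalb), precursors of oligodendrocytes 1 higher of 8 (C1ql1), oligodendrocytes 0 of 10, and endothelial cells and pericytes 0 of 9. Choroid plexus and ependyma gave 1 higher of 6 (Ccdc153), with sums that varied from 29 to 454 TPM in Usp7 cKO and 40.4 to 901 TPM in Usp7 WT, and the erythroid and muscle list, other sources of tissue-restricted subunits, 1 higher of 6 tested (Acta1). After rescaling 2 astrocyte markers were called higher and 2 lower. Without the libraries of discordant sex 5 glutamatergic and 10 microglial markers were called lower, and the calls of Sox9, Gfap, Pvalb and Ccdc153 were lost. Those 4 were lost with Xist as covariate too. Without Usp7 WT replicate 4, 7 glutamatergic markers were called lower, the calls of Pvalb and Ccdc153 were lost, and 3 genes of the erythroid and muscle list were called higher (Acta1, Hbb-bs and Hba-a1). No gene of any cell type list was at 0 in every library. The part of cell composition in the members' values was not tested.

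Exon usage, the share of a gene's reads that falls in each counting bin, differed in few members. At the gene level 1 of 79 members tested was called by edgeR, Sdhb (Simes adjusted p = 0.0427), against 2.85% of 13954 genes. At the bin level 3 of 898 bins of the members were called (0.334%), against 0.43% of 228098 bins. All 3 bins were used more in Usp7 cKO and lie outside coding exons. In Sdhb the bin (chromosome 4, 140973781 to 140974297, GRCm38) overlaps no coding or untranslated exon of a protein-coding transcript and was not classed as a retained intron. It held 111, 120, 175, 122 and 155 counts in the Usp7 cKO libraries, against 106, 101, 96, 47 and 82 counts in the Usp7 WT libraries, or 2.65 ± 0.611% in Usp7 cKO and 1.8 ± 0.469% in Usp7 WT (SD, n = 5 each) of the gene's counts (relative log2 change 0.54, edgeR adjusted p = 0.0275). The share in Usp7 WT replicate 4 was the lowest and that in Usp7 cKO replicate 3 the highest, and the groups overlapped slightly. The gene call was lost without a single library in 6 cases (Usp7 cKO replicates 1, 3, 4 and 5 and Usp7 WT replicates 1 and 2), with no covariate, and when both libraries of discordant sex were left out. The authors' deposited table gives this bin a log2 fold of 0.56 and an adjusted p of 0.377.

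In Sdha the called bin (chromosome 13, 74338750 to 74339046) is part of an intron that an annotated transcript retains. It held 31, 45, 37, 30 and 44 counts in the Usp7 cKO libraries, against 18, 32, 16, 28 and 22 counts in the Usp7 WT libraries, or 0.245 ± 0.0474% in Usp7 cKO and 0.141 ± 0.0392% in Usp7 WT (SD, n = 5 each) of the gene's counts (relative log2 change 0.79, edgeR adjusted p = 0.0347). The groups met at Usp7 cKO replicate 4 and Usp7 WT replicate 2, and the counts per library are small. In Cox6c, a complex IV subunit whose gene overlaps Vps13b on the other strand, the bin (chromosome 15, 35937761 to 35938009) lies in an untranslated exon. It held 57, 79, 88, 79 and 75 counts in the Usp7 cKO libraries, against 62, 62, 40, 42 and 46 counts in the Usp7 WT libraries, or 0.908 ± 0.0833% in Usp7 cKO and 0.612 ± 0.0929% in Usp7 WT (SD, n = 5 each) of the gene's counts (relative log2 change 0.57, edgeR adjusted p = 0.0436). The lowest Usp7 cKO share lay above the highest Usp7 WT share. The authors' deposited table calls 3 of 989 bins of the members, against 0.573% of all bins with a value, namely those of Sdha and Cox6c (log2 folds of 0.80 and 0.57, adjusted p = 0.0396 and 0.00206) and a retained-intron bin of Ndufa10 (log2 fold of 0.59, adjusted p = 0.00496). In the edgeR fit the Ndufa10 bin had 0.811 ± 0.0813% in Usp7 cKO and 0.547 ± 0.0832% in Usp7 WT (SD, n = 5 each) of the gene's counts (relative log2 change 0.58, edgeR adjusted p = 0.0674).

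Bins of retained introns leaned the same way in the members as elsewhere. Of 107 such bins in 44 members 87 (81.3%) had a positive relative log2 change, with a median of 0.16, and 1 was called (0.935%). Over all genes 75.6% of 16554 such bins were positive, with a median of 0.16, so the members' share of positive bins is near that of all genes. Of these 16554 bins 301 were called (1.82%). Coding bins of the members were positive in 48.3% of 511 cases, and 0 were called by edgeR. Over all genes 46.1% of 166525 coding bins were positive, and 0.162% were called. Retained introns took 2.33, 2.28, 2.33, 2.28 and 2.57% of the counts of these 44 members in the Usp7 cKO libraries, against 2.15, 2.18, 1.98, 2.06 and 2.27% in the Usp7 WT libraries. Over all genes with such bins the share was 2.42 to 2.99% in Usp7 cKO and 2.19 to 2.62% in Usp7 WT.

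**Figure D4:**
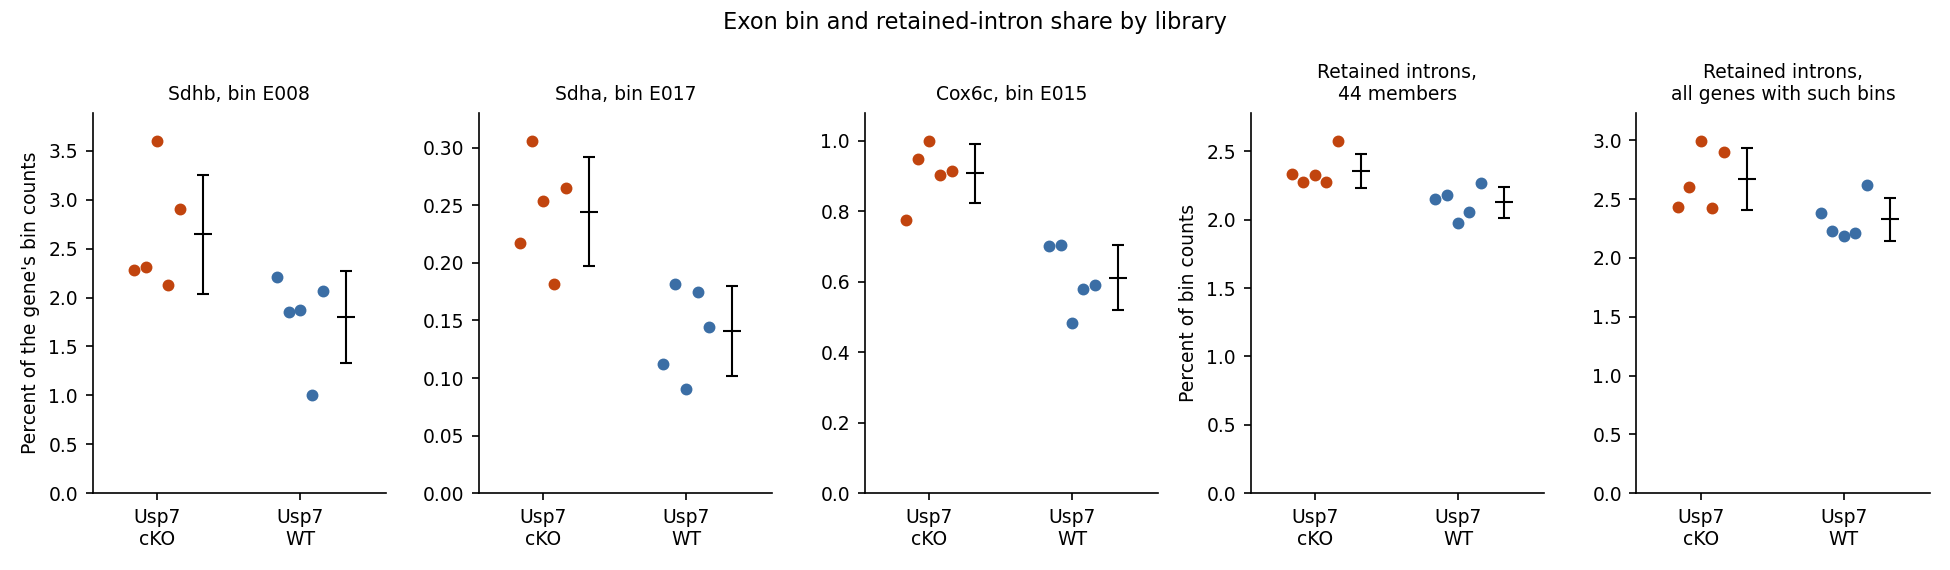
Share of the gene's bin counts in the called bins of Sdhb, Sdha and Cox6c, and share of bin counts in retained introns over 44 members and over all genes with such bins, in the 5 Usp7 cKO (left, red) and 5 Usp7 WT (right, blue) libraries, with mean and SD. The Usp7 cKO means are higher in each panel, 0.908% in Usp7 cKO and 0.612% in Usp7 WT for the Cox6c bin.

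Introns gave no call. Spliced reads of 51 clusters of alternative introns in 43 members could be tested. By edgeR 0 were called, against 0.22% of 10441 clusters over all genes. With so low a share, 0 calls among 51 clusters do not set the members apart. The smallest unadjusted edgeR p of a member cluster was 0.0679, in Ndufb9. Of the 139 introns in these clusters 4 had an unadjusted p under 0.05, in Ndufs8, Ndufb9, Uqcr10 and Cox7a2l. The share over all introns is not given here. The clusters held 47251 to 59433 reads per library in Usp7 cKO and 43354 to 56001 in Usp7 WT over all 51 clusters.

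The promoters of the members, where factors of mitochondrial biogenesis are known to bind, shared some short motifs. RefSeq promoters (GRCm38.p6, 250 bases before to 50 after the start) matched 67 member symbols with 72 promoters, and they were set beside the 21262 promoters of protein-coding genes, both strands searched. The NRF1 motif GCGCANGC stood in 33.3% of the members' promoters and 13.2% of all. The ETS motif CCGGAAG, which the factor GABP recognises, stood in 23.6% of the members' promoters and 11.6% of all. Both motifs are rich in G and C, and the GC content averaged 57.4% in the members' promoters and 56.2% in all. The YY1 motif AAGATGG stood in 15.3% of the members' promoters and 6.24% of all, and the motif AAGGTCA of estrogen-related receptors in 11.1% of the members' promoters and 4.08% of all. CCAAT, the CCAAT box, stood in 41.7% of the members' promoters and 38.2% of all, and TATAAA in 12.5% of the members' promoters and 12.6% of all. By complex, the NRF1 motif was found for 9 of 30 genes of complex I, 3 of 3 of complex II, 2 of 5 of complex III, 1 of 14 of complex IV and 8 of 15 of complex V. None of these strings contains another, and a match describes only the letters in these windows.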

How the data were processed

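The authors deposited gene-level TPM, with 55487 genes once 287 repeated lines were counted once, raw read counts of 458337 exon bins with their own log2 folds and adjusted p-values of exon usage, and counts of spliced reads over 32135 introns, per the file headers. STAR 2.7.9a, featureCounts, SAMtools 1.10 and GRCm38 are listed in the submitters' processing notes. The sources used here give neither gene lengths nor whether counting used strand, and 39 of 86 members overlap another gene, such as Ndufa2, Uqcrb, Atp5o, Atp5a1, Cox6a2, Ndufb11, Cox4i1, Uqcrh and Atp5md among those named, so their levels are uncertain to that extent.

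Every value is a bulk library of 1 animal. Small structural RNAs took 15.1 to 25.2% of TPM. All intron counts of Usp7 WT replicate 1 were even and were halved. Intron counts then summed to 3388310 to 4367711 per library.

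From the deposited TPM, limma 3.58.1 (trend and robust, labelled sex as covariate) was fitted in R 4.3.3 to log2(TPM + 0.5) of 27580 genes averaging 0.5 TPM or more, with Benjamini-Hochberg adjustment over all of them and a threshold of 0.05, two-sided. Changes on this scale understate those of low genes. Exon bins averaging 10 counts or more and introns averaging 5 or more were tested for usage with edgeR 4.0.16 (diffSpliceDGE, TMM, Simes p per gene or cluster). The limma fit, edgeR on summed bin counts and the exon usage test were tried on simulated data, and intron usage and DESeq2 were not. DESeq2 1.42.0 and edgeR on bin counts summed per gene were alternatives, as were other pseudocounts and filters, rescaled TPM, covariates and each library left out. Intervals are 95%.

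Named with values in each library were, per complex, up to 4 members with the smallest p, the most abundant one and the tissue-restricted paralogs, plus called bins and up to 4 genes of each pathway list. Ndufa5, Ndufa6, Atp5j2, Cox6b1, Pvalb, Sox9, Gfap, C1ql1, Ccdc153, Acta1, Hbb-bs, Hba-a1, Atp5b, the Ndufa10 bin and the introns with an unadjusted p under 0.05 were named after their values were seen. The members and lists were chosen with earlier results of these data known.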

Additional observations from a re-analysis of the deposited data

Results flagged for a closer look

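Of 68 groups of 5 libraries examined (the sums of the complexes and the genes given by library), 6 held a library whose gap to the next value was large for the range of its group. For independent groups without ties chance alone gives about 1 group in 20. These groups share libraries and genes, and both groups of Cox8c hold 0 in all libraries but 1, so an excess cannot be judged. The summed TPM of complex III was 1307 in Usp7 WT replicate 4, below the other 4 Usp7 WT libraries, and Uqcrh was lowest there too, at 126 TPM. In Usp7 cKO replicate 3, Cox5b reached 328 TPM and Atp5mpl 62.8 TPM, above the other 4 Usp7 cKO libraries. Cox8c was listed at 0.139 TPM in Usp7 cKO replicate 2 and at 0.123 TPM in Usp7 WT replicate 4, and at 0 in the other 8 libraries. Usp7 WT replicate 4 and Usp7 cKO replicate 3 are the libraries in which the members were most often the lowest and the highest of all 10.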

How the results depend on the processing

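Counts of called members depended on the setting. The 3 called members became 5 with a minimum mean of 2 TPM, 1 without both libraries of discordant sex, 5 with edgeR and 7 with DESeq2 on summed bin counts, and 2 to 13 when single libraries were left out. Complex I gave 0 calls with rescaled TPM, with Xist as covariate and without the libraries of discordant sex, 2 with DESeq2, and 0 to 4 with single libraries left out. Complex II gave 1 with edgeR and 1 with DESeq2 (0 to 2 with libraries left out). Complex III gave 1 with rescaled TPM, 1 with edgeR and 2 with DESeq2 (0 to 2). Complex IV gave 1 with rescaled TPM and 1 without the libraries of discordant sex (2 to 3), and complex V 1 with a minimum of 2 TPM (0 to 2). Over all genes the 3832 calls became 2181 without the libraries of discordant sex, 6548 with edgeR and 6572 with DESeq2 (2794 to 3585 with libraries left out). Of the other pathway genes 16 were called, against 34 with rescaled TPM, 7 without the libraries of discordant sex, 34 with edgeR and 41 with DESeq2 (13 to 20). Exon usage called 0 members with no covariate and without the libraries of discordant sex (0 to 1 with libraries left out), and over all genes 215 without the libraries of discordant sex (239 to 368). Intron clusters called overall ran from 13 to 25, and 0 of the members' clusters were called with any library left out. The causes were not tested.

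Values that changed sign belonged to genes that were not called. Ndufa2 gave -0.0047 with rescaled TPM, -0.0030 with DESeq2 and -0.0268 to 0.12 with libraries left out. Atp5a1 gave -0.0011 and -0.0067 with rescaled TPM and DESeq2. Cox8a ran from -0.10 to 0.0157 and Cox8b from -0.12 to 0.34 with libraries left out, and Cox8b gave -0.0217 with DESeq2. Cox7a1 gave -0.0227 with rescaled TPM, -0.137 with Xist as covariate, -0.0639 without the libraries of discordant sex, -0.0553 with edgeR, -0.0681 with DESeq2 and -0.0942 to 0.16 with libraries left out. Over all alternatives, 532 values of single genes kept their direction and side of the threshold, and 173 counts stayed within 1.5 times the main count. A further 21 values changed direction, 20 were classed as stronger and 11 as weaker, and 55 counts moved beyond that bound.

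The title numbers give a replicate block with labelled sex. Libraries of the same block had correlations of -0.02 to 0.09 over 7 pairs, and the other pairs ran from -0.09 to 0.08. All are weak, so these values do not settle whether the numbers pair the samples. With the replicate block 4 members were called, 2 of them in complex I (Ndufb6 lower besides Ndufb7), with 3654 genes at the gene level, 427 for exon usage and 19 intron clusters. Of the called members Cox6b2 rests on the fewest reads, 58 to 183 bin counts per library.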
